A study of Mus musculus with 8 samples.

Results

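STAT and SOCS genes were followed through 3 progenitor populations of the mouse fetal liver. The group held Stat3, Stat4, Stat5a, Stat5b, Stat6, Socs1, Socs2, Socs3 and Cish, chosen by name and not by level, and these are 9 of the 34745 genes in the deposited expression table. Libraries came from ILC1/3P (2), ILCP (3) and CLP (3), all sorted as live, lineage-negative, CD45+ CD127+ cells from untreated wild-type B6 mice. ILC1/3P lacked surface Flt3, CD25 and PD-1 and carried α4β7 and CD94, ILCP lacked Flt3, CD25 and CD94 and carried α4β7 and PD-1, and CLP carried Flt3 and lacked CD25. A fetal stage is not given in the labels, which place an age of 6 to 8 weeks under the heading for cell type. Sort purity was stated as above 90%, and whether libraries of 1 population came from separate animals or litters is not stated, so the p-values measure the spread between these libraries, which may be technical.

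STAT proteins are transcription factors that wait in the cytoplasm until a cytokine receptor and its JAK kinase phosphorylate them, after which they pair and bind DNA in the nucleus. SOCS proteins and CISH are made in response to the same signals and dampen them, by blocking the kinase, by occupying the receptor or by marking it for degradation. In lymphoid progenitors IL-7 acts through STAT5, while in mature innate lymphoid cells IL-12 acts through STAT4, IL-23 through STAT3 and STAT4, and IL-4 and IL-13 through STAT6.

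The sorted populations carried the transcripts of the surface markers that were used to separate them. Flt3 was at 0 CPM in ILC1/3P, 0.427 ± 0.739 in ILCP and 459 ± 96 in CLP (SD, 2, 3 and 3 libraries), where CPM is the count of a gene scaled to the size of its library with TMM factors. Pdcd1, which encodes PD-1, averaged 13.8 CPM in ILC1/3P, 77.7 in ILCP and 0 in CLP, so its transcript was also present in the population sorted without the protein. Klrd1, which encodes CD94, averaged 1407 CPM in ILC1/3P, 44.7 in ILCP and 52.2 in CLP. Itgb7, the β7 chain gene, was higher than in CLP in ILC1/3P (log2 fold change 3.69) and in ILCP (4.16). Itga4, the α4 chain gene, was lower in ILC1/3P than in CLP (-1.46) and than in ILCP (-1.72). Each of these differences passed the edgeR quasi-likelihood test at an adjusted p under 0.05. Library totals were 6310739 to 8082476 counts in ILC1/3P, 6043940 to 6905448 in ILCP and 4991939 to 7167619 in CLP. Mitochondrial genes took 4.91% and 5.39% of the counts in ILC1/3P, 2.71% to 4.13% in ILCP and 2.70% to 4.53% in CLP. The 50 most abundant genes took 24.8% and 29.2% of the counts in the ILC1/3P libraries, against 15.1% to 18.05% in ILCP and 12.9% to 16.03% in CLP, and the TMM factors were 0.753 and 0.671 in ILC1/3P, 1.05 to 1.17 in ILCP and 1.09 to 1.23 in CLP. After this scaling the median log2 fold change of all 13436 tested genes was -0.25 for ILC1/3P against CLP, -0.23 for ILC1/3P against ILCP and 0.0069 for ILCP against CLP, and without it the first 2 medians became -0.93 and -0.86.

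The 9 genes sit on 5 mouse chromosomes in the mm10 build, and 4 of them share chromosome 11. Stat5b (chr11:100780731-100850724), Stat5a (chr11:100859351-100885169) and Stat3 (chr11:100885098-100939540) lie side by side there, with Stat5a and Stat5b 8626 bases apart and the ends of Stat5a and Stat3 overlapping by 72 bases on opposite strands. Socs3 lies further along the same chromosome (chr11:117966079-117970047), and Stat6 (chr10:127642986-127660957) and Socs2 (chr10:95385362-95417180) share chromosome 10. The remaining loci are Stat4 (chr1:51987148-52107189), Cish (chr9:107296026-107302784) and Socs1 (chr16:10783808-10785536). In GENCODE M21, 26.7% of the exonic bases of Stat4 also belong to Gm28177, a transcript on the same strand. Gm28177 itself held 14.1 ± 6.5 CPM in ILC1/3P, 10.6 ± 6.5 in ILCP and 16.6 ± 13.4 in CLP (SD, 2, 3 and 3 libraries), so the division of reads between Stat4 and this transcript is uncertain. Stat5a and Stat5b are close paralogs that share 3.44% and 4.79% of their 100-base exonic windows, and 6.75% of those of Cish and 2.31% of those of Socs2 also occur in another gene. No 100-base window of Stat3, Stat6, Socs1 or Socs3 occurred in another gene.

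Short stretches of 4 promoters are shown because they carry the DNA letters that STAT dimers and interferon regulatory factors are known to bind. RefSeq promoter windows (GRCm38.p6, 250 bases before to 50 after each start) were found for 8 of the 9 genes, all but Socs2, and were searched on both strands. The 9 letters TTCNNNGAA, the gamma-activated site bound by STAT dimers, occurred 3 times in 2 of the genes, Cish and Socs3, and in 9.55% of all genes with a window. The variant with TTC and GAA separated by 4 bases, preferred by STAT6, was in none of the 8 genes and in 8.01% of all genes. A pair of GAAA separated by 2 bases, the core of an interferon-response element, occurred 3 times in 2 of the genes, Socs1 and Stat4, and in 3.99% of all genes. In the 30-base stretches below, read 5′ to 3′ on the strand of the gene, capitals mark these matches. Coordinates are chr9:107296654-107296683 on the plus strand for Cish, chr11:117969501-117969530 on the minus strand for Socs3, chr16:10785597-10785626 on the minus strand for Socs1 and chr1:52008133-52008162 on the plus strand for Stat4.
Cish: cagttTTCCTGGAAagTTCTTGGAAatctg
Socs3: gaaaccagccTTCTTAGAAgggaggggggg
Socs1: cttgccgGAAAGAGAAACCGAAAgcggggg
Stat4: aatgtcttcaGAAAGTGAAAtttagaacgg
The 2 Cish matches begin at the start site and 11 bases after it, the Socs3 match begins 154 bases before the start, and the 2 overlapping Socs1 matches begin 83 and 77 bases before it. The Stat4 match begins 97 bases before one of its annotated starts. A match describes letters only, and binding was not measured.

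Stat3 was the only one of the 5 STAT genes called in any comparison of the edgeR fit, and it was low in ILC1/3P. Its protein carries signals from IL-6, IL-10 and IL-23 receptors. The ILC1/3P libraries held 11.2 and 14.7 CPM, the ILCP libraries 69.5, 45.3 and 43.2 CPM, and the CLP libraries 53.5, 41.2 and 47.9 CPM. Both ILC1/3P libraries lay far below every ILCP and CLP library, whereas ILCP and CLP overlapped. Stat3 fell 3.68-fold in ILC1/3P relative to CLP (log2 fold change -1.88 ± 0.42 SE, adjusted p = 0.00692, edgeR quasi-likelihood test with Benjamini-Hochberg adjustment over all genes tested). It fell 4.08-fold in ILC1/3P relative to ILCP (log2 fold change -2.03 ± 0.42 SE, adjusted p = 0.00754, same test). Set against the shift of all genes, these log2 differences were -1.63 and -1.80. Between ILCP and CLP the log2 fold change was 0.15 with a 95% interval of -0.60 to 0.90, and the adjusted p was 0.908 in the same test. Both calls were kept when any 1 library was left out and under each other processing tried, with a highest adjusted p of 0.0394 against CLP and 0.0367 against ILCP. In bulk libraries like these, fewer cells of a type and less RNA per cell cannot be told apart.

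Of the 5 STAT genes, Stat4 had the highest CPM in every library, and its protein relays IL-12 to the interferon gamma gene. It held 144 and 40.2 CPM in ILC1/3P, 99.97, 167 and 191 in ILCP and 177, 241 and 191 in CLP. The ILC1/3P libraries stood far apart, both lay below every CLP library, and the higher one overlapped ILCP. The log2 fold change of ILC1/3P against CLP was -1.14 ± 0.47 SE with an adjusted p of 0.105, and against ILCP it was -0.73 ± 0.46 SE with an adjusted p of 0.323 (edgeR quasi-likelihood, Benjamini-Hochberg). These values depended on which of the 2 ILC1/3P libraries was kept. Without ILC1/3P library 1 they became -2.34 and -1.93, and without ILC1/3P library 2 they became -0.50 and -0.076. Against CLP the gene was called with scaling by library size only (log2 fold change -1.76, adjusted p = 0.0264, edgeR quasi-likelihood). It was also called there with no low-count filter (-1.14, adjusted p = 0.0123, same test). The ILCP libraries overlapped those of CLP, with a log2 fold change of -0.41 and a 95% interval of -1.30 to 0.48.

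**Figure D1:**
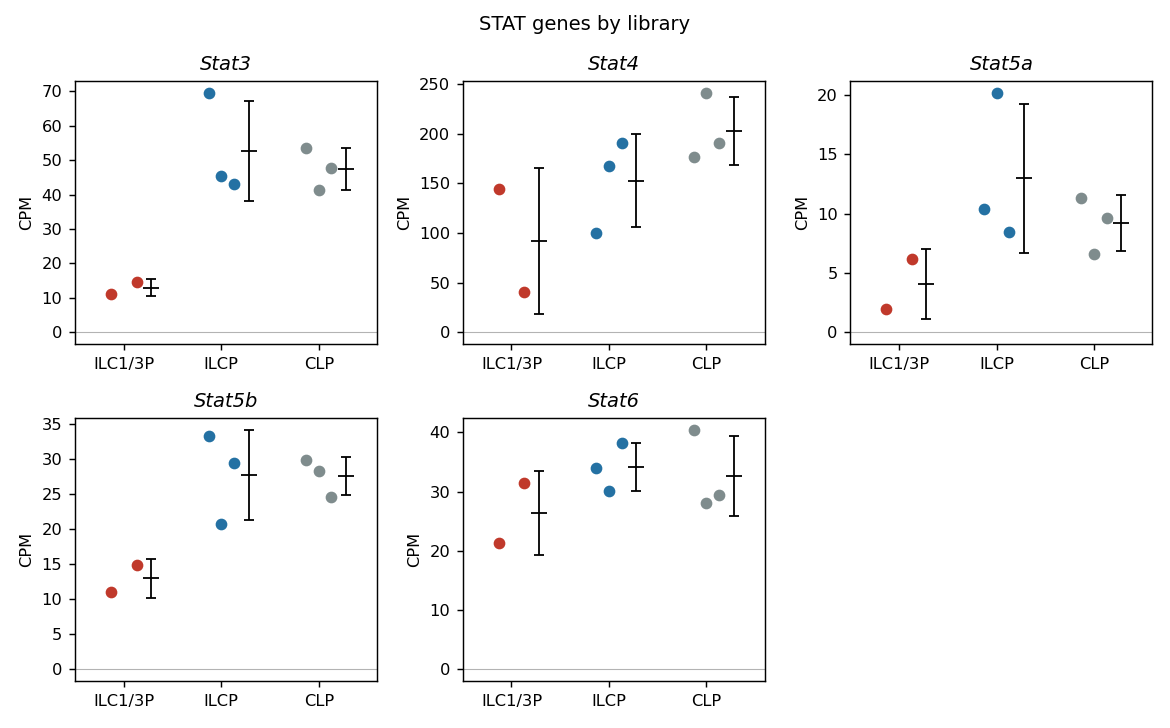
CPM of the 5 STAT genes in each library, with 1 point per library and the mean and SD drawn to the right of each population (ILC1/3P n = 2, ILCP n = 3, CLP n = 3). Stat3 sits at 11.2 and 14.7 CPM in ILC1/3P, below all 6 other libraries, while the 2 ILC1/3P libraries of Stat4 lie at 144 and 40.2 CPM.

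Stat5a and Stat5b encode the near-identical factors that carry IL-2, IL-7 and IL-15 signals, and both had their lowest libraries in ILC1/3P without passing the test. Stat5b held 11.02 and 14.9 CPM in ILC1/3P, 33.3, 20.7 and 29.4 in ILCP and 29.9, 28.3 and 24.6 in CLP. Both ILC1/3P libraries lay below all 6 others, and ILCP and CLP overlapped. Its log2 fold change was -1.09 ± 0.48 SE for ILC1/3P against CLP (adjusted p = 0.124) and -1.10 ± 0.48 SE against ILCP (adjusted p = 0.150) in the edgeR quasi-likelihood test. With scaling by library size only, these values were -1.78 (adjusted p = 0.0220) and -1.76 (adjusted p = 0.0305) in the same edgeR test.

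Stat5a was the scarcer of the pair, at 1.97 and 6.15 CPM in ILC1/3P, 10.4, 20.2 and 8.45 in ILCP and 11.3, 6.62 and 9.64 in CLP. Its ILC1/3P libraries also lay below all others, by a narrow margin against CLP. The log2 fold changes of -1.19 ± 0.87 SE against CLP and -1.69 ± 0.88 SE against ILCP had adjusted p-values of 0.348 and 0.227 (edgeR quasi-likelihood). Stat5b made up 85.5 ± 7.1% of the summed Stat5a and Stat5b FPKM in ILC1/3P, 77.9 ± 12.4% in ILCP and 83.7 ± 3.7% in CLP (SD, 2, 3 and 3 libraries), and these ranges overlapped. FPKM are the authors' deposited values, which divide the fragments of a gene by its length and the depth of the library. The length behind them was 9981 bases for Stat5a and 5863 for Stat5b, against 7133 and 5539 exonic bases in GENCODE M21. Per kilobase of GENCODE exon, the share of Stat5b was 81.8% in ILC1/3P, 73.1% in ILCP and 79.5% in CLP.

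Stat6, which carries IL-4 and IL-13 signals, gave no call. It held 21.4 and 31.4 CPM in ILC1/3P, 34.0, 30.1 and 38.3 in ILCP and 40.5, 28.1 and 29.5 in CLP. All 3 populations overlapped. The 95% intervals of its log2 fold change were -1.23 to 0.61 for ILC1/3P against CLP, -1.29 to 0.55 for ILC1/3P against ILCP and -0.75 to 0.87 for ILCP against CLP.

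Socs1 was higher in both ILC1/3P and ILCP than in CLP. SOCS1 binds JAK kinases directly and restrains interferon and common gamma chain cytokine signals. Its levels were 32.9 and 53.4 CPM in ILC1/3P, 52.2, 31.9 and 59.4 in ILCP and 9.18, 6.99 and 15.4 in CLP. Every ILC1/3P and ILCP library lay above the highest CLP library, and ILC1/3P and ILCP overlapped. Socs1 rose 4.08-fold in ILC1/3P relative to CLP (log2 fold change 2.03 ± 0.49 SE, adjusted p = 0.0105, edgeR quasi-likelihood, Benjamini-Hochberg) and 4.53-fold in ILCP relative to CLP (2.18 ± 0.46 SE, adjusted p = 0.0123, same test). Between ILC1/3P and ILCP the log2 fold change was -0.15 with a 95% interval of -1.22 to 0.92.

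These 2 Socs1 calls were less firm than those of Stat3. In the edgeR test the call of ILCP against CLP was lost without ILCP library 3 (adjusted p = 0.0624), without CLP library 1 (adjusted p = 0.0561) and without CLP library 2 (adjusted p = 0.0599). The call of ILC1/3P against CLP was lost without ILC1/3P library 2 (log2 fold change 1.64, adjusted p = 0.0750) and with scaling by library size only (1.34, adjusted p = 0.0648) in that test. Socs1 stayed higher in each of these fits.

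Socs2, which limits growth hormone and STAT5 signals, had 31.1 and 69.0 CPM in ILC1/3P, 33.7, 46.4 and 14.9 in ILCP and 12.6, 32.6 and 11.9 in CLP. CLP library 2 stood at the level of the lower libraries of the other populations, and all 3 populations overlapped. The log2 fold changes were 1.40 ± 0.62 SE for ILC1/3P against CLP (adjusted p = 0.125), 0.66 ± 0.61 SE for ILC1/3P against ILCP (adjusted p = 0.516) and 0.74 ± 0.56 SE for ILCP against CLP (adjusted p = 0.563) in the edgeR quasi-likelihood test.

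Socs3, the feedback inhibitor of the IL-6 receptor chain gp130, was scarce in every library. It had 15 and 8 counts in ILC1/3P (2.47 and 1.89 CPM), 8, 2 and 19 counts in ILCP (1.14, 0.276 and 2.67 CPM) and 40, 22 and 13 counts in CLP (4.53, 4.05 and 1.93 CPM). The populations overlapped. At this depth the 95% interval of the log2 fold change ran from -4.07 to 2.71 for ILC1/3P against CLP, from -2.63 to 3.98 for ILC1/3P against ILCP and from -4.37 to 1.67 for ILCP against CLP, and no difference was detectable.

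Cish, a STAT5-induced inhibitor of cytokine receptors, varied more between libraries of a population than between populations. It had 56 and 9 counts in ILC1/3P (9.21 and 2.13 CPM), 18, 9 and 82 counts in ILCP (2.56, 1.24 and 11.5 CPM) and 1, 49 and 0 counts in CLP (0.113, 9.01 and 0 CPM). In CLP, library 2 held nearly all of the counts, and for library 3 a count of 0 allows up to 0.445 CPM, counting error only. The SD of the CLP libraries was 170% of their mean, and the 95% interval of the log2 fold change of ILCP against CLP ran from -2.89 to 4.42. The antisense gene Gm17041, whose exons overlap 7.46% of those of Cish, had 0 to 17 counts per library.

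**Figure D2:**
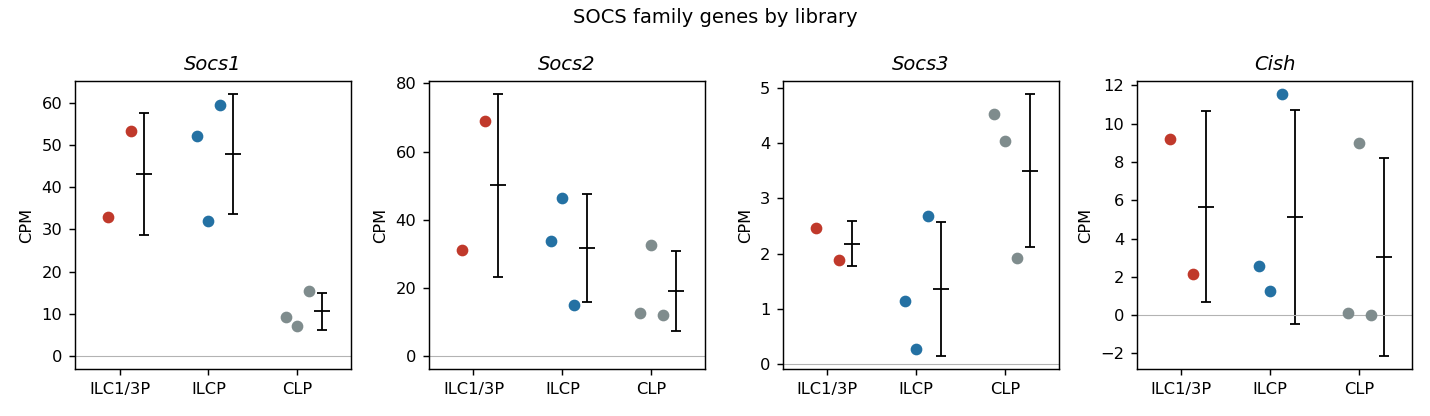
CPM of the 4 SOCS family genes in each library, with 1 point per library and the mean and SD to the right of each population (ILC1/3P n = 2, ILCP n = 3, CLP n = 3). Socs1 lies at 32.9 to 53.4 CPM in ILC1/3P, 31.9 to 59.4 in ILCP and 6.99 to 15.4 in CLP, and the Cish point at 9.01 CPM in CLP comes from library 2.

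Read together, 1 of the 9 genes was called higher and 1 lower in ILC1/3P against CLP, where 11.8% of all tested genes were called higher and 11.7% lower. In ILC1/3P against ILCP, 0 were called higher and 1 lower, beside 8.06% and 8.25% of all tested genes, and in ILCP against CLP 1 was called higher and 0 lower, beside 3.91% and 2.87%. With 9 genes these counts are near the background, so the group as a whole does not stand out. Libraries did not overlap for 1 gene higher and 4 lower in ILC1/3P against CLP, beside 23.3% and 29.1% of all tested genes. The same held for 0 genes higher and 3 lower in ILC1/3P against ILCP, beside 20.2% and 24.7%, and for 1 higher and 0 lower in ILCP against CLP, beside 14.1% and 14.0%. The median log2 fold change of the 9 genes was -0.68 in ILC1/3P against CLP, -0.37 in ILC1/3P against ILCP and 0.15 in ILCP against CLP. Each pair of these comparisons shares a population, so they are not independent.

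**Figure D3:**
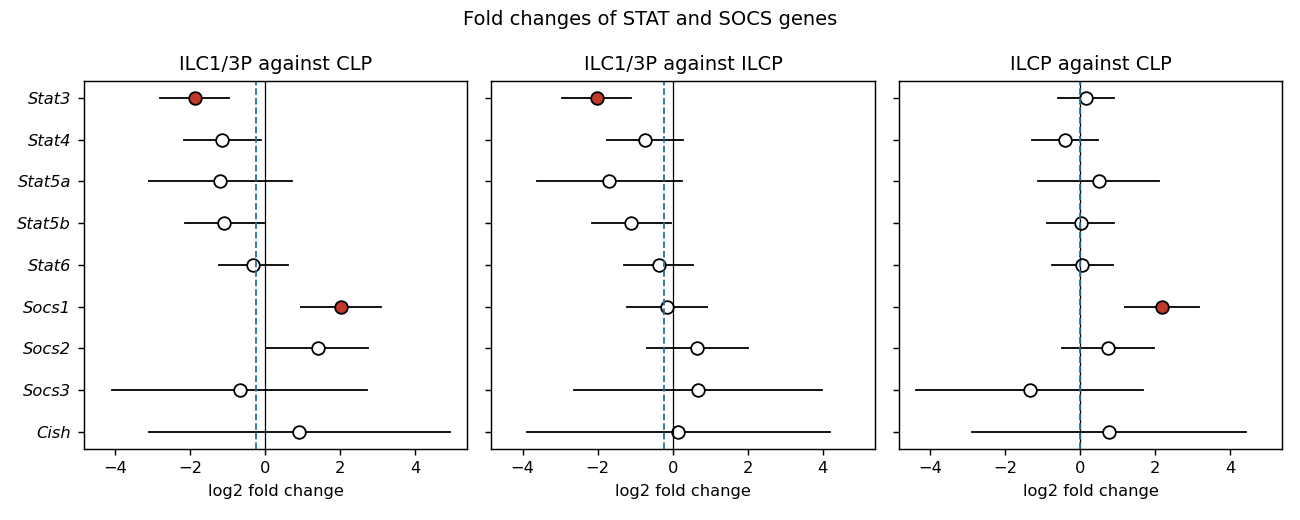
Log2 fold change of each of the 9 genes in the 3 comparisons, with 95% intervals as bars, filled points for genes called at an adjusted p under 0.05 and a dashed line at the median of all tested genes. Stat3 lies at -1.88 and -2.03 in the 2 ILC1/3P comparisons, Socs1 at 2.03 and 2.18 in the 2 comparisons with CLP, and the bars of Socs3 and Cish are the widest.

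Per unit of length, the order of the 9 genes depended on the length used. In FPKM, Socs1 stood at 24.8 ± 6.4 in ILC1/3P, 43.7 ± 14.2 in ILCP and 9.74 ± 3.8 in CLP, and Stat4 at 14.3 ± 12.2 in ILC1/3P, 35.5 ± 10.1 in ILCP and 48.6 ± 6.2 in CLP (SD, 2, 3 and 3 libraries). Socs1 therefore ranked first in ILC1/3P and ILCP and Stat4 in CLP. The length behind the FPKM of Socs1 was 1220 bases, whereas its exons in GENCODE M21 span 2908 bases. Its deposited locus spans only 1729 bases, less than those exons. If reads were counted over that locus alone, the GENCODE length makes the value of Socs1 too low. Counted per kilobase of GENCODE exon, a measure added after the data were seen, Stat4 ranked first in all 3 populations, at 23.8 ± 18.9 CPM per kilobase in ILC1/3P, 39.4 ± 12.2 in ILCP and 52.4 ± 8.7 in CLP. Socs1 then took rank 2 in ILC1/3P and ILCP and rank 5 in CLP. Stat5a, Socs3 and Cish shared the lowest 3 ranks in every population.

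Within each gene family the shares shifted as follows, by summed FPKM over 6 STAT genes (Stat2 to Stat6) and over 8 SOCS family genes. Socs1 made up 77.0 ± 9.5% of the SOCS family in ILC1/3P, 72.8 ± 6.4% in ILCP and 41.3 ± 7.0% in CLP (SD, 2, 3 and 3 libraries). Its lowest share in ILC1/3P, 70.3%, and in ILCP, 65.5%, lay above its highest in CLP, 47.0%. Per kilobase of GENCODE exon its share was 54.1% in ILC1/3P, 51.9% in ILCP and 21.9% in CLP. These shares may be too low, because that exon length exceeds the deposited locus of Socs1. The FPKM shares of Socs1 may be too high. The lengths behind the FPKM exceeded the GENCODE exonic bases for Cish (10850 against 6419), Socs2 (13691 against 9531) and Socs6 (14979 against 11349). For Socs5 the length was shorter than the exons (4392 against 6416), as for Socs1. Stat4 made up 62.0 ± 28.2% of the 6 STAT genes in ILC1/3P, 64.2 ± 9.8% in ILCP and 71.7 ± 7.4% in CLP, and the populations overlapped. A share moves with every other gene of the family and is not a level.

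**Figure D4:**
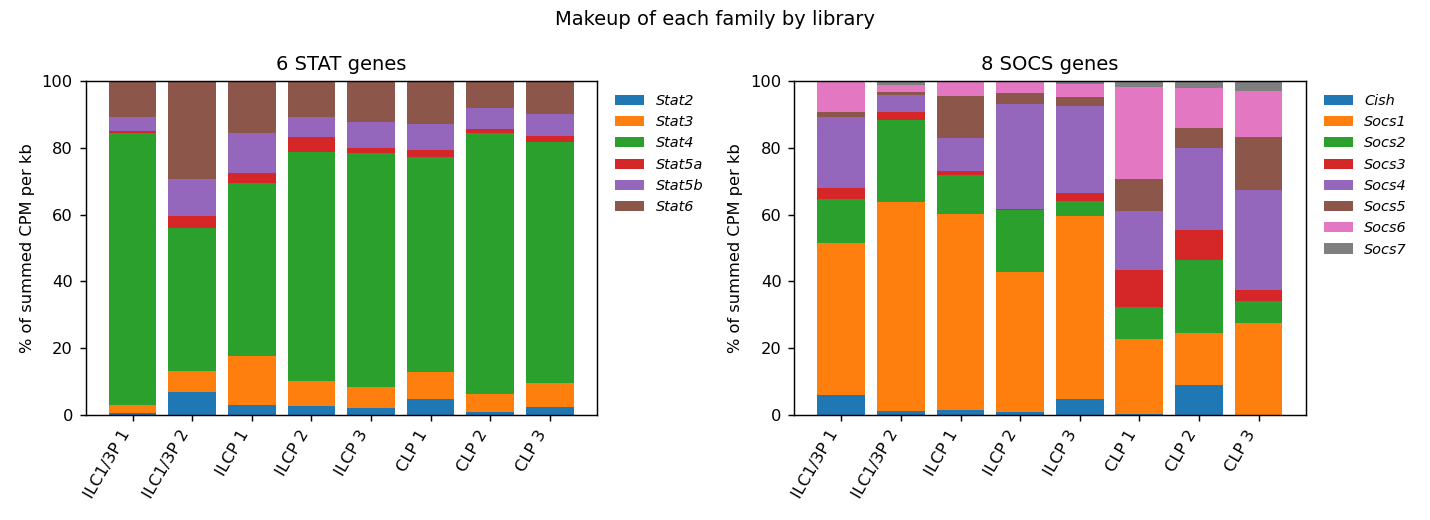
Share of each gene in the summed CPM per kilobase of GENCODE exon of its family, as 1 stacked bar per library, for 6 STAT genes and 8 SOCS family genes. The exon length used for Socs1 exceeds its deposited locus, so its shares may be too low. Stat4 is 42.7% to 81.4% of the STAT genes in ILC1/3P, 52.0% to 70.0% in ILCP and 64.4% to 78.1% in CLP, and Socs1 is 45.6% to 62.6% of the SOCS family in ILC1/3P, 42.0% to 58.8% in ILCP and 15.5% to 27.6% in CLP.

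Markers of other lineages differed between the same populations. Of 8 B-lineage markers, 5 were detected in ILC1/3P and 8 in each of ILCP and CLP, with Igll1, Pax5 and Rag1 at 0 in ILC1/3P, and their summed level was 129 to 170 CPM in ILC1/3P, 154 to 192 in ILCP and 2575 to 3456 in CLP. Cd79a and Cd79b were the most abundant of them in CLP, at 1829 ± 369 and 715 ± 136 CPM (SD, n = 3). Of 8 T-cell markers, 6 were detected in ILC1/3P, 6 in ILCP and 5 in CLP. Cd4 and Cd8b1 were at 0 in ILC1/3P, Cd4 and Cd5 in ILCP, and Cd3e, Cd8a and Cd8b1 in CLP. Their sum was 2432 to 3752 CPM in ILC1/3P, 1480 to 2305 in ILCP and 45.3 to 52.5 in CLP, most of it Cd3g and Cd3d in ILC1/3P. Of 8 mast cell and basophil markers, 2 were detected in ILC1/3P, 3 in ILCP and 3 in CLP, and Mcpt8, Mcpt4, Tpsb2, Fcer1a and Ms4a2 were at 0 in all 3. Their sum was 211 to 292 CPM in ILC1/3P, 584 to 765 in ILCP and 44.9 to 87.5 in CLP, nearly all of it Cpa3 and Kit. Of 6 megakaryocyte markers, 2 were detected in ILC1/3P, 4 in ILCP and 3 in CLP, with Ppbp and Gp6 at 0 in all 3. Their sum was 14.3 to 36.9 CPM in ILC1/3P, 45.7 to 59.2 in ILCP and 0 to 6.07 in CLP, and Gp1bb made up most of it outside CLP. The sums of these 4 lists divide CLP from the other populations as Socs1 does. Of 8 erythroid markers, 4 were detected in ILC1/3P, 6 in ILCP and 7 in CLP, with a sum of 18.1 to 27.2 CPM in ILC1/3P, 5.69 to 6.77 in ILCP and 7.36 to 16.5 in CLP, so this sum was highest where Stat3 was lowest, as was the mitochondrial share. Most of it in ILC1/3P was Hba-a1, at 13.2 and 15.4 CPM, and Hba-a2, at 1.81 and 11.8 CPM, whereas Hbb-bt averaged 0.576 CPM in ILC1/3P, 1.22 in ILCP and 1.80 in CLP. Klf1, Alas2 and Epor were among those at 0 in ILC1/3P, Klf1 in ILCP, and Epor was at 0 in CLP. The part of such cells, or of the mitochondrial share, in the results for Stat3 and Socs1 was not tested.

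The kinases that activate STATs gave 1 call per comparison with CLP. Of 4 JAK genes, Jak2, the kinase of IL-12, IL-23 and hematopoietic growth factor receptors, averaged 90.6 ± 4.6 CPM in ILC1/3P, 56.5 ± 11.5 in ILCP and 15.8 ± 2.8 in CLP (SD, 2, 3 and 3 libraries). It rose in ILC1/3P relative to CLP (log2 fold change 2.52 ± 0.35 SE, adjusted p = 0.000407, edgeR quasi-likelihood) and in ILCP relative to CLP (1.84 ± 0.32 SE, adjusted p = 0.00453, same test), with no overlap in either. The median of the 4 JAK genes was 1.17 in ILC1/3P against CLP, 0.68 in ILC1/3P against ILCP and 0.62 in ILCP against CLP. Jak1, Jak3 and Tyk2 did not pass the test in any comparison. Neither did Stat2.

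The remaining inhibitors gave few calls. None of the 4 genes Socs4 to Socs7 was called in any comparison, with a median log2 fold change of -0.89 in ILC1/3P against CLP, -0.43 in ILC1/3P against ILCP and -0.54 in ILCP against CLP. Of 4 PIAS genes, whose products bind STATs in the nucleus, Pias1 fell in ILC1/3P relative to CLP (log2 fold change -1.48 ± 0.39 SE, adjusted p = 0.0173, edgeR quasi-likelihood). Its call was lost without ILC1/3P library 2 or CLP library 2, with a highest adjusted p of 0.0879. The PIAS medians were -1.67 in ILC1/3P against CLP, -1.49 in ILC1/3P against ILCP and -0.23 in ILCP against CLP. Of 8 phosphatases and adaptors, Ptpn6, which encodes the phosphatase SHP-1, averaged 46.2 ± 27.5 CPM in ILC1/3P, 103.9 ± 17.3 in ILCP and 176 ± 40 in CLP. It fell in ILC1/3P relative to CLP (-1.92 ± 0.40 SE, adjusted p = 0.00498, same test). The medians of these 8 genes were 0.33 in ILC1/3P against CLP, 0.41 in ILC1/3P against ILCP and -0.15 in ILCP against CLP, where all tested genes had -0.25, -0.23 and 0.0069.

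Receptors that signal through STAT5 changed in both directions. Of 12 tested of 16 listed, 3 were higher and 3 lower in ILC1/3P against CLP (median log2 fold change -0.92), 0 higher and 1 lower in ILC1/3P against ILCP (-0.39), and 3 higher and 1 lower in ILCP against CLP (-0.053). Il2rb, the chain shared by IL-2 and IL-15, averaged 38.3 ± 6.4 CPM in ILC1/3P, 41.4 ± 27.7 in ILCP and 1.13 ± 1.26 in CLP. The common gamma chain gene Il2rg averaged 4525 ± 1511 CPM in ILC1/3P, 2692 ± 264 in ILCP and 758 ± 172 in CLP, and shares 30.5% of its exonic bases with Gm20489. Both genes rose against CLP in ILC1/3P (log2 fold changes 4.98 and 2.58, adjusted p = 0.00266 and 0.000103) and in ILCP (5.09 and 1.83, adjusted p = 0.00471 and 0.00103) in the edgeR quasi-likelihood test. Il2ra, the gene of CD25, averaged 2.30 ± 2.09 CPM in ILC1/3P and 7.57 ± 1.54 CPM in ILCP and had 0 counts in CLP. It was called higher in both, and its calls were lost without ILC1/3P library 2 or CLP library 1 in ILC1/3P (highest adjusted p = 0.0825) and without any 1 ILCP or CLP library in ILCP (highest adjusted p = 0.0645) in that test. Il7r went the other way, at 215 ± 1 CPM in ILC1/3P, 484 ± 21 in ILCP and 434 ± 80 in CLP. It fell in ILC1/3P relative to CLP (-1.02 ± 0.24 SE, adjusted p = 0.00968) and relative to ILCP (-1.17 ± 0.24 SE, adjusted p = 0.00729) in the edgeR test, the first call being lost without ILC1/3P library 2 (adjusted p = 0.0528).

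The IL-12 and IL-23 receptor chains were at or near 0 in CLP. Il23r averaged 21.3 ± 15.97 CPM in ILC1/3P and 82.5 ± 33.7 CPM in ILCP and had 0 counts in CLP, so it was at least 135-fold higher in ILC1/3P and at least 579-fold higher in ILCP against a floor of 3 counts over the CLP libraries together. Il12rb1 averaged 26.3 ± 8.9 CPM in ILC1/3P, 15.5 ± 6.9 in ILCP and 0.552 ± 0.956 in CLP. It rose in ILC1/3P relative to CLP (log2 fold change 5.66 ± 1.32 SE, adjusted p = 0.00898, edgeR quasi-likelihood). Its call in ILCP against CLP (4.90 ± 1.24 SE, adjusted p = 0.0356, same test) was lost when any 1 of the libraries of these populations other than CLP library 2 was left out, with a highest adjusted p of 0.113. It was also lost with scaling by library size only (adjusted p = 0.0533) and with only the 2 populations fitted. Il12rb2 averaged 20.3 ± 8.0 CPM in ILC1/3P, 15.0 ± 4.4 in ILCP and 1.14 ± 1.19 in CLP, and 40.0% of its exonic bases overlap Serbp1 on the other strand. It rose in ILC1/3P relative to CLP (4.09 ± 1.07 SE, adjusted p = 0.0163, same test), a call lost without ILC1/3P library 1 or CLP library 3 (highest adjusted p = 0.0576).

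Of 9 tested of 12 listed receptors that signal through STAT3, 1 was called higher and 3 lower in ILC1/3P against CLP (median log2 fold change -1.76). In ILC1/3P against ILCP 0 were called (-0.84), and in ILCP against CLP 1 was called higher and 1 lower (-1.37). Libraries of ILC1/3P lay below those of ILCP without overlap for 4 of the 9, beside 24.7% of all tested genes. Lifr, the LIF receptor gene, had 2 counts in ILC1/3P, 0 in ILCP and 325 in CLP, and its calls were lost without CLP library 1 (adjusted p = 0.0616 in ILCP against CLP, up to 0.129 in ILC1/3P against CLP, where leaving out ILC1/3P library 1, CLP library 2 or CLP library 3 also ended the call, edgeR). Il10rb, a chain of the IL-10 receptor, averaged 13.4 ± 8.3 CPM in ILC1/3P, 24.1 ± 2.5 in ILCP and 59.1 ± 10.3 in CLP. It fell in ILC1/3P relative to CLP (log2 fold change -2.13 ± 0.49 SE, adjusted p = 0.00889, edgeR quasi-likelihood), a call lost without ILC1/3P library 2 (adjusted p = 0.0526). Il4ra and Il13ra1, which signal through STAT6, gave no call.

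Interferon receptor genes changed unevenly. Of 4 tested of 5 listed, 1 was higher and 2 lower in ILC1/3P against CLP (median log2 fold change -1.51), 0 higher and 1 lower in ILC1/3P against ILCP (0.090), and 0 higher and 1 lower in ILCP against CLP (-1.53). Ifngr2, the signalling chain of the interferon gamma receptor, averaged 3.59 ± 3.07 CPM in ILC1/3P, 49.4 ± 10.5 in ILCP and 127 ± 7 in CLP. It fell in ILC1/3P relative to CLP (log2 fold change -5.09 ± 0.56 SE, adjusted p = 0.000100, edgeR quasi-likelihood) and relative to ILCP (-3.73 ± 0.53 SE, adjusted p = 0.00118, same test). Ifnar2, a chain of the type I interferon receptor, averaged 71.9 ± 37.2 CPM in ILC1/3P, 47.8 ± 10.4 in ILCP and 155 ± 12 in CLP. It fell in ILCP relative to CLP (-1.70 ± 0.32 SE, adjusted p = 0.00735, same test). The calls of Ifnar2 and Ifngr1 in ILC1/3P against CLP were lost without any 1 of several libraries, with highest adjusted p-values of 0.268 and 0.317. Both were also lost with only the 2 populations fitted, that of Ifnar2 with RLE factors too, and that of Ifngr1 with scaling by library size only, where its log2 fold change was 0.11 instead of 0.77 (adjusted p = 0.792, edgeR).

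Genes known as STAT targets, mostly from T cells and macrophages, were counted by the factor they are known for. Of 8 STAT4 targets, 5 were higher in ILC1/3P against CLP (median log2 fold change 2.92), 1 in ILC1/3P against ILCP (0.18) and 3 in ILCP against CLP (2.54), and 0 were lower. Of all tested genes, 11.8%, 8.06% and 3.91% were called higher in these comparisons, in that order. The list was chosen with earlier results of these data known, so these counts carry no test of STAT4. Among the 5, the call of Tbx21 was lost without CLP library 1 or CLP library 2, among other libraries. That of Il12rb2 was lost without CLP library 3, as given above. Ifng, the interferon gamma gene, averaged 1288 ± 474 CPM in ILC1/3P and 21.8 ± 8.3 CPM in ILCP and had 0 counts in CLP. It rose in ILC1/3P relative to ILCP (log2 fold change 5.88 ± 0.43 SE, adjusted p = 0.000109, edgeR quasi-likelihood), and 25.9% of its exonic bases belong to Gm49751 as well. The IL-18 receptor genes Il18r1 and Il18rap averaged 137 ± 32 and 75.2 ± 22.1 CPM in ILC1/3P, 117 ± 28 and 69.0 ± 14.3 in ILCP, and 3.15 ± 3.67 and 22.2 ± 3.3 in CLP. Both rose against CLP in ILC1/3P (log2 fold changes 5.49 and 1.76, adjusted p = 0.000979 and 0.00399) and in ILCP (5.26 and 1.63, adjusted p = 0.00231 and 0.00975) in the edgeR test. In ILCP the call of Il18rap was lost without ILCP library 3 or CLP library 3, with a highest adjusted p of 0.0545, and that of Il18r1 with no low-count filter (adjusted p = 0.0612).

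Several STAT3 targets were higher outside CLP, also in ILC1/3P, where Stat3 was lowest. Of 8 tested of 9 listed, 4 were higher and 1 lower in ILC1/3P against CLP (median log2 fold change 2.36), 1 higher and 1 lower in ILC1/3P against ILCP (-0.28), and 4 higher and 0 lower in ILCP against CLP (1.18). Maf, a transcription factor gene, averaged 289 ± 52 CPM in ILC1/3P, 306 ± 41 in ILCP and 21.3 ± 9.6 in CLP. Batf, which encodes an AP-1 partner, averaged 166 ± 65 CPM in ILC1/3P, 75.2 ± 8.3 in ILCP and 18.2 ± 3.8 in CLP. Both rose against CLP in ILC1/3P (log2 fold changes 3.77 and 3.19, adjusted p = 6.05e-05 and 0.000100) and in ILCP (3.85 and 2.05, adjusted p = 6.17e-05 and 0.00190) in the edgeR quasi-likelihood test. The call of Batf in ILC1/3P against ILCP (1.14, adjusted p = 0.0386) was lost without any 1 of ILC1/3P library 2, CLP library 2 and the ILCP libraries, with a highest adjusted p of 0.340, and with scaling by library size only (0.48, adjusted p = 0.330). Junb, an AP-1 subunit gene, averaged 207 ± 20 CPM in ILC1/3P, 815 ± 311 in ILCP and 652 ± 55 in CLP. It fell in ILC1/3P relative to CLP (-1.66 ± 0.32 SE, adjusted p = 0.00310) and relative to ILCP (-1.98 ± 0.32 SE, adjusted p = 0.00245) in the edgeR test. In these comparisons 11.7% and 8.25% of all tested genes were called lower. STAT3 activity was not measured, and a part of Stat3 in the levels of these genes was not tested.

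STAT5 targets split between the populations. Of 10 tested of 11 listed, 3 were higher and 0 lower in ILC1/3P against CLP (median log2 fold change 0.65), 1 higher and 2 lower in ILC1/3P against ILCP (-0.36), and 3 higher and 0 lower in ILCP against CLP (0.69). Bcl2, the survival gene, averaged 31.3 ± 10.8 CPM in ILC1/3P, 142 ± 16 in ILCP and 21.1 ± 3.1 in CLP. Ccnd2, the cyclin D2 gene, averaged 487 ± 131 CPM in ILC1/3P, 103.3 ± 41.0 in ILCP and 104.8 ± 22.2 in CLP. Against ILCP, ILC1/3P had lower Bcl2 (log2 fold change -2.18 ± 0.36 SE, adjusted p = 0.00245) and higher Ccnd2 (2.24 ± 0.35 SE, adjusted p = 0.00192) in the edgeR quasi-likelihood test. Pim2, a kinase gene, was also lower there (-1.95 ± 0.41 SE, adjusted p = 0.00851), a call lost without ILC1/3P library 2 (adjusted p = 0.0620). Gzmb, the granzyme B gene, averaged 16.2 ± 5.2 CPM in ILC1/3P and 4.28 ± 2.21 CPM in ILCP and had 0 counts in CLP, at least 109-fold higher in ILC1/3P and at least 29.8-fold higher in ILCP by the same floor.

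Of the STAT6 list, 3 of 7 genes were tested, and Gata3 and Arg1 were higher than in CLP in both other populations. Gata3, a regulator of type 2 and innate lymphoid programmes, averaged 79.8 ± 15.2 CPM in ILC1/3P, 215 ± 34 in ILCP and 2.56 ± 0.46 in CLP. It fell in ILC1/3P relative to ILCP (log2 fold change -1.43 ± 0.30 SE, adjusted p = 0.00823, edgeR quasi-likelihood). Arg1, the arginase gene, averaged 1096 ± 301 CPM in ILC1/3P, 1524 ± 229 in ILCP and 1.83 ± 0.87 in CLP.

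Of 7 interferon-response genes, 3 were higher and 2 lower in ILC1/3P against CLP (median log2 fold change 1.61), 3 higher and 1 lower in ILC1/3P against ILCP (1.93), and 1 higher and 1 lower in ILCP against CLP (-0.16). Psmb9, an immunoproteasome subunit gene, averaged 337 ± 138 CPM in ILC1/3P, 62.3 ± 14.9 in ILCP and 69.5 ± 6.1 in CLP. Irf9, which encodes the DNA-binding partner of STAT2 in type I interferon signalling, averaged 5.52 ± 3.13 CPM in ILC1/3P, 46.0 ± 13.9 in ILCP and 72.2 ± 10.9 in CLP. In ILC1/3P, Psmb9 rose and Irf9 fell relative to CLP (log2 fold changes 2.28 and -3.69, adjusted p = 0.000397 and 0.000430) and relative to ILCP (2.44 and -3.04, adjusted p = 0.000834 and 0.00260) in the edgeR quasi-likelihood test. The exons of Psmb9 and Tap1 overlap on opposite strands. Gbp2, which encodes a guanylate-binding protein, averaged 96.3 ± 16.9 CPM in ILC1/3P, 26.9 ± 11.5 in ILCP and 3.98 ± 4.12 in CLP. It rose in ILC1/3P relative to CLP (4.56 ± 0.77 SE, adjusted p = 0.00139, same test), and its call in ILCP against CLP was lost in 5 of the fits that left out a library (highest adjusted p = 0.150), with scaling by library size only (adjusted p = 0.0738) and with only the 2 populations fitted. Irf8, a factor of dendritic and B cells, averaged 21.7 ± 8.1 CPM in ILC1/3P, 0.898 ± 1.195 in ILCP and 179 ± 103 in CLP. It rose in ILC1/3P relative to ILCP (4.57 ± 0.79 SE, adjusted p = 0.00302) and fell in ILCP relative to CLP (-7.62 ± 0.82 SE, adjusted p = 0.000131) in the edgeR test.

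**Figure D5:**
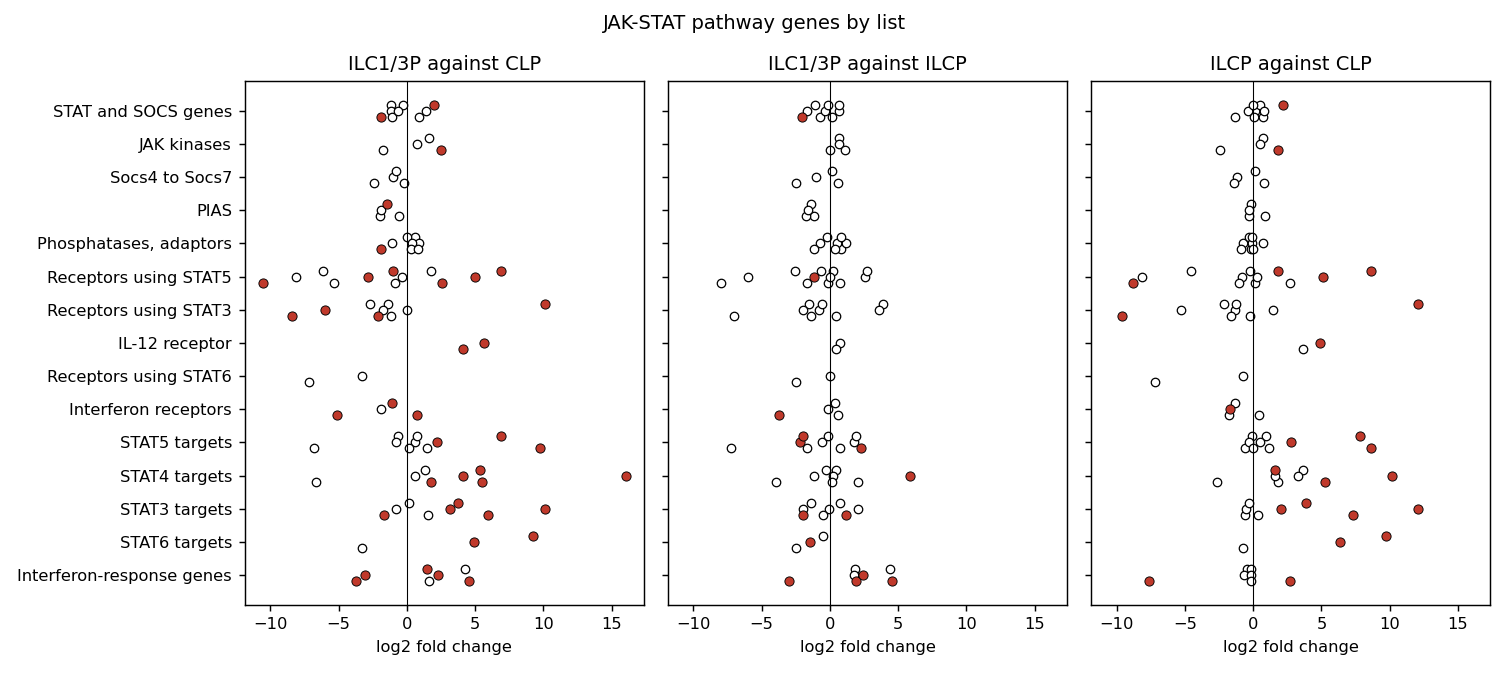
Log2 fold change of every tested gene of the STAT and SOCS group and of 14 JAK-STAT pathway lists in the 3 comparisons, with filled points for genes called at an adjusted p under 0.05. In ILC1/3P against CLP, the 5 filled points of the STAT4 targets all lie to the right of 0, where 11.8% of all tested genes were called higher. The lists were chosen with earlier results of these data known.

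Over all 80 tested genes of these lists outside the group, of 94 listed, 22 were higher and 13 lower in ILC1/3P against CLP, 6 higher and 7 lower in ILC1/3P against ILCP, and 17 higher and 4 lower in ILCP against CLP. A gene in 2 lists was counted once, and the shares of all tested genes called are those given above. The fitted fold changes of genes with no counts in a population depend on the prior count of the fit and are plotted but not read as sizes, and setting such genes to their bound left the medians given for the lists as they are.

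The genes whose levels followed those of Stat3 and Socs1 most closely were found among 7553 genes, by the root mean square distance between centred log2(CPM + 1) values over the 8 libraries. Nearest to Stat3 were Pitpnb at 0.183, Dctn2 at 0.194 and Lancl1 at 0.210, where the median gene lay at 1.02. Nearest to Socs1 were Aoah at 0.325, St6galnac3 at 0.329 and Acot7 at 0.360, where the median gene lay at 1.27. These distances describe the same 8 libraries and carry no test.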

How the data were processed

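Bulk RNA-seq libraries of sorted ILC1/3P (2), ILCP (3) and CLP (3) were used, and sample titles gave the population and replicate number of each. All 8 libraries carry the same batch label. The labels' protocols describe lysis of sorted cells, reverse transcription in the lysate (SMARTer Ultra Low kit), PCR amplification and NovaSeq6000 sequencing. The file holds deposited counts, whole numbers per gene, beside FPKM calculated by the authors. Per the submitters' processing notes the build is mm10, while aligner, counter, annotation and strand use were not given in the sources used here. Without strand, reads of overlapping genes cannot be told apart. No molecular identifiers are described, so floors cover counting error only.

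The count test was edgeR 4.0.16 under R 4.3.3 (quasi-likelihood with robust dispersion, TMM scaling, filterByExpr) over all 8 libraries with 1 mean per population. The filter kept 13436 genes, all 9 STAT and SOCS genes among them. P-values are two-sided, Benjamini-Hochberg adjusted over all genes tested and called under 0.05, and each standard error comes from the F statistic. Common dispersion corresponded to a coefficient of variation of 0.679 between libraries. Totals of 4991939 to 8082476 counts limit the precision of scarce genes such as Socs3 and Cish. The procedure was tried on simulated counts with the same spread set for every gene, which is simpler than these data. How many changes it recovered is not reported here. Alternatives were RLE factors, library size only, no low-count filter, DESeq2 1.42.0, only the 2 populations compared, a replicate block and leaving out each library. Levels between genes were compared in FPKM and, as an alternative added after seeing the data, per kilobase of GENCODE M21 exon, because the length behind the FPKM exceeded the whole locus for 784 of 11771 genes with 100 counts or more, Cish among them. Exon overlaps also use GENCODE M21, and promoter sequences are from RefSeq on GRCm38.p6.

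The genes and lists were chosen with earlier results of these data known. Named were all 9 genes, the up to 3 called genes with the smallest p per pathway list and comparison, the 2 most abundant genes of an other-lineage list set beside a result, and the 3 genes nearest to each called STAT or SOCS gene, leaving out predicted genes and pseudogenes. Other genes named, such as sort markers, overlapping genes and markers at 0, were chosen after their values were seen. Some genes that this rule names are not reported here.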

Additional observations from a re-analysis of the deposited data

How the results depend on the processing

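Of 378 refits of a STAT or SOCS gene, 345 kept direction and side of the threshold, 5 lost a call, 6 gained one and 22 changed sign without a call; the cause was not tested. In ILCP against CLP, leaving out a library gave log2 fold changes for Stat3 of -0.10 to 0.27, Stat5b -0.14 to 0.16 (values below 0 include -0.00043), Stat6 -0.036 to 0.24 and Cish -0.66 to 6.01, and Stat5b was -0.0037 with RLE factors, -0.023 with library size only and -0.0049 in DESeq2. In ILC1/3P against CLP it gave Cish -0.50 to 6.16. In ILC1/3P against ILCP it gave Socs1 -0.53 to 0.16 (0.14 with the replicate block), Socs2 -0.020 to 1.12 (-0.00020 with library size only) and Cish -1.26 to 1.57 (-0.44 with library size only).

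Calls among the 9 genes numbered 1 in ILCP against CLP (0 to 1 when a library was left out, all higher). They numbered 2 in ILC1/3P against CLP, 1 higher and 1 lower (1 to 3 in all, 0 to 1 higher and 1 to 2 lower when a library was left out, 0 and 3 with library size only, 2 lower with no low-count filter), and 1 in ILC1/3P against ILCP, lower (1 to 2 when a library was left out, 2 with library size only). Over all genes, ILCP against CLP gave 912 calls, 526 higher and 386 lower, against 1735, 929 and 806 in DESeq2, 602 lower with no filter, and 587 to 1114, 347 to 613 and 215 to 502 when a library was left out. ILC1/3P against CLP gave 1592 higher and 1571 lower, and 946 and 2807 with library size only. ILC1/3P against ILCP gave 2192 calls, 1083 higher and 1109 lower, against 474 and 2141 with library size only, 1750 lower in DESeq2, and 1333 to 2161, 623 to 1066 and 689 to 1233 when a library was left out. Of 27 pairs of population means, 25 had the same direction in FPKM as in CPM.

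Libraries with the same replicate number had correlations between their deviations from the population means of -0.035 to 0.23, so the numbers were not taken as pairs, and the replicate block changed no call of the 9 genes. Among pathway genes named above it ended the calls against CLP of Il2ra (adjusted p = 0.0886 in ILC1/3P and 0.0822 in ILCP, edgeR) and Lifr (0.105 in ILC1/3P and 0.0505 in ILCP), of Gzmb (0.0627) and Il12rb1 in ILCP, and of Ifngr1 in ILC1/3P, and that of Batf in ILC1/3P against ILCP. With 2 ILC1/3P libraries, a lone library left after removing the other was assumed to vary like the other populations. Depth limits Socs3 and Cish, with 0 to 82 counts per library.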
